A study of Rattus norvegicus with 56 samples.

Results

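Liver RNA of adult male rats that had been growth-restricted before birth and then raised on a Western diet with fructose (IUGR-HFhf) was compared with that of male chow-fed controls (CON) at the circadian time ZT16. The libraries were taken by their labels for sex, time and diet, and no measured value entered the choice: 7 of the 56 libraries in all belong to the comparison, 4 of IUGR-HFhf and 3 of CON. IUGR-HFhf rats came from Sprague-Dawley dams limited to 50% of their calories from gestation day 10 until they gave birth, when the maternal diet became the high-fat, high-fructose one. HFhf rats, a diet group without growth restriction (4 libraries), came from dams given the Western diet, with water that held 25% fructose, from gestation day 11. CON rats had regular chow throughout. The effect in males at ZT16 was also set against that in males at ZT4, in the light phase (3 IUGR-HFhf and 3 CON libraries), and in females at ZT16 (4 IUGR-HFhf and 3 CON libraries), and CON females at ZT4 (3 libraries) served to define sex bias. Livers were taken at day 180. The labels do not tie libraries to dams or litters, so p-values measure the spread between these libraries. IUGR-HFhf differs from CON in both the prenatal restriction and the diet, and in that comparison their effects cannot be told apart. The source label reads mouse liver, although the organism label and the genome build are of rat.

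ZT counts hours from lights on, so ZT16 falls in the dark phase, in which rats are active and eat most of their food. In the fed state the liver turns sugar into fatty acids: insulin and sugar act through the transcription factors SREBP-1c, encoded by Srebf1, and ChREBP, encoded by Mlxipl, and the fatty acids made are joined to glycerol as triglycerides. Rat liver is also strongly sex-biased, because growth hormone is secreted in separate pulses in males and more evenly in females, and many cytochrome P450 and steroid-metabolising genes follow that pattern.

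The IUGR-HFhf libraries held 6.73 to 7.6 M reads assigned to genes and the CON libraries 5.55 to 9.05 M. Summed hepatocyte markers reached 197000 to 224000 CPM (counts scaled to a common library size, adjusted by TMM) in IUGR-HFhf livers, against 164000 to 178000 CPM in CON livers. Alb, the largest part of that sum, had 125000 to 153300 CPM in IUGR-HFhf livers, against 96760 to 107500 CPM in CON livers, and was not called. Of these 8 markers 1 was called higher, Apoa1, the main protein of high-density lipoprotein. The others did not share a direction: log2 fold changes were 0.35, 0.05 and 0.08 for Ttr, Tf and Apoh. They were -0.33, -0.14 and -0.16 for Serpina1, Ahsg and Fgb. Stellate cell markers summed to 206 to 275 CPM in IUGR-HFhf livers, against 285 to 304 CPM in CON livers, and macrophage markers to 494 to 546 CPM in IUGR-HFhf livers, against 544 to 663 CPM in CON livers. No other marker of the 12 lists was called, and Elane, a neutrophil marker, had 0 reads in the 7 libraries. In bulk tissue fewer cells of a type and less RNA per cell cannot be told apart, and the part of these marker sums in the results below was not tested.

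Of 11047 genes tested, 203 were higher and 163 lower in IUGR-HFhf livers than in CON livers at an adjusted p under 0.05 (edgeR quasi-likelihood test with Benjamini-Hochberg adjustment), which is 1.84% and 1.48% of the genes and 3.31% together. In 356 of the 366 genes the groups did not overlap; over all genes tested, 10.1% lay wholly higher and 9.32% wholly lower in IUGR-HFhf. The number of calls depended on single libraries: 87 genes passed without CON replicate 1, of which 86 were among the 366, and 144 without CON replicate 2. It was 227 and 230 without IUGR-HFhf replicates 1 and 4. The 366 genes kept their sign with each of the 7 libraries left out in turn. For the 356 without overlap this was bound to happen, so it does not test the direction. Without CON replicate 1 the median log2 fold change of the 203 higher genes was 0.79, against 0.87 with all libraries, and that of the 163 lower genes was -1.03, against -1.14. In the authors' deposited table for these groups, 201 of the 203 and 156 of the 163 were also called in the same direction at an adjusted p under 0.05. That table called more genes, 257 higher and 202 lower. It is for the same groups of the same series, so the overlap is not independent evidence.

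Several of the steepest rises were of genes with almost no reads in CON livers. Akr1b7, an aldo-keto reductase, had 16.99, 9.15, 99.1 and 3.47 CPM in IUGR-HFhf livers, against 0.157, 0.132 and 0.102 CPM in CON livers. The CON values rest on 3 reads in all, and the ratio of the depth-scaled reads was 266 (95% exact interval 90.7 to 1290, counting error only). Dmrta1, of the doublesex-related family of transcription factors, had 6.22 to 13.4 CPM in IUGR-HFhf livers, against 0 to 0.102 CPM in CON livers, from 1 read (ratio 227, interval 40.3 to 8980). Sult4a1, of the sulfotransferase family, had 48.6 to 69.3 CPM in IUGR-HFhf livers, against 0 to 2.23 CPM in CON livers. Cyp17a1, the steroid 17-hydroxylase, had 78.9, 66.7, 59.3 and 64.03 CPM in IUGR-HFhf livers, against 3.94, 6.05 and 6.80 CPM in CON livers (log2 fold change 3.56, SE 0.647, adjusted p = 0.00118). In each of these genes the lowest IUGR-HFhf liver stood above the highest CON liver by more than the CON range. Plekhd1 had 5.32 to 6.32 CPM in IUGR-HFhf livers, against 0 to 0.132 CPM in CON livers, from 2 reads (ratio 69.1, interval 18.8 to 575). Ptgis, the prostacyclin synthase, had 3.04 to 9.65 CPM in IUGR-HFhf livers, against 0 to 0.812 CPM in CON livers, and Ppp1r14c, a phosphatase inhibitor, 1.73 to 3.09 CPM in IUGR-HFhf livers, against 0 to 0.305 CPM in CON livers. Tmem178b, with 1.86 to 6.85 CPM in IUGR-HFhf livers, against 0 to 0.526 CPM in CON livers, passed in 4 of 14 alternative settings. Without CON replicate 1, Akr1b7, Plekhd1, Ptgis and Ppp1r14c did not pass, with adjusted p of 0.0568, 0.0803, 0.0684 and 0.0568, while Dmrta1, Sult4a1 and Cyp17a1 did.

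The steepest fall was that of Abcb1b, a P-glycoprotein that exports drugs and hormones from cells. It had 1.19, 10.4, 4.08 and 4.77 CPM in IUGR-HFhf livers, against 312, 44.6 and 55.5 CPM in CON livers (log2 fold change -4.73, SE 0.822, adjusted p = 0.0011). CON replicate 1 was far above the other CON libraries, and without it the log2 fold change was -3.28 (adjusted p = 0.0402). Cdkn1a, which encodes the cell cycle inhibitor p21, had 3.29, 20.2, 1.86 and 13.4 CPM in IUGR-HFhf livers, against 129, 46.2 and 65.2 CPM in CON livers (log2 fold change -3.04, SE 0.746, adjusted p = 0.0151), and did not pass without CON replicate 1 (log2 fold change -2.53, adjusted p = 0.115). Mst1r, the receptor of macrophage-stimulating protein, had 0 to 0.866 CPM in IUGR-HFhf livers, against 4.47 to 12.1 CPM in CON livers. Ankrd33b, an ankyrin-repeat gene, had 0.371 to 1.16 CPM in IUGR-HFhf livers, against 5.35 to 10.5 CPM in CON livers. The groups were apart in both genes, which passed in each of 14 alternative settings. Lama5, a laminin chain, had 1.58 to 2.97 CPM in IUGR-HFhf livers, against 6.09 to 27.7 CPM in CON livers; without CON replicate 1 it did not pass (log2 fold change -1.96, adjusted p = 0.0739). Car1, a carbonic anhydrase, Anxa8, an annexin, Ryr2, a calcium release channel, Tox3, a nuclear factor, and Pla2g12a, a phospholipase, also fell, by 3.72, 3.14, 3.37, 2.65 and 2.57 on the log2 scale, and Ryr2 passed in 7 of 14 alternative settings. Tox3 and Pla2g12a did not pass without CON replicate 1 (log2 fold changes -2.69 and -2.19). The erythroid markers, cells in which Car1 is abundant, summed to 74.1 to 184 CPM in IUGR-HFhf livers, against 36.2 to 118 CPM in CON livers.

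Genes of fatty acid synthesis were higher in IUGR-HFhf livers. Of 21 tested 9 rose and 0 fell (42.9% called, against 3.31% of all genes tested). A log2 fold change above 0 was found for 21 of 21, and their median was 0.90, against 0 over all genes. In IUGR-HFhf 15 lay wholly higher, where 10.1% of all genes tested did. Fasn, the fatty acid synthase, had 11023, 10979, 10378 and 9390.0 CPM in IUGR-HFhf livers, against 1109.5, 3702 and 2818 CPM in CON livers (log2 fold change 2.04, SE 0.492, adjusted p = 0.0137). Srebf1 had 1358, 1701, 1531 and 1174 CPM in IUGR-HFhf livers, against 388, 559 and 542 CPM in CON livers (log2 fold change 1.54, SE 0.307, adjusted p = 0.00254). Me1, the malic enzyme that supplies NADPH for the synthesis, had 475, 276, 282 and 325 CPM in IUGR-HFhf livers, against 31.3, 39.6 and 75.8 CPM in CON livers (log2 fold change 2.79, SE 0.544, adjusted p = 0.00217). Every IUGR-HFhf liver was above every CON liver for these genes, and CON replicate 1 was the lowest library for each of them. Acsl5, an acyl-CoA synthetase, Elovl2, a fatty acid elongase, Fads2, a desaturase, and Thrsp, a nuclear protein of lipogenic tissues, rose by 1.33, 1.84, 1.70 and 1.10 on the log2 scale. Acaca and Acly, which encode the enzymes upstream of Fasn, did not overlap between the groups and missed the threshold, with log2 fold changes of 0.90 (adjusted p = 0.0986) and 1.38 (adjusted p = 0.104). Mlxipl had a log2 fold change of 0.11 (adjusted p = 0.842). When CON replicate 1 was left out, 5 of the 21 passed, and Fasn was not among them (log2 fold change 1.68, adjusted p = 0.128).

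Scd2, a stearoyl-CoA desaturase, and Pnpla3, a lipid droplet protein with lipase activity, had the largest fold changes of that list. Scd2 had 952, 102, 980.0 and 193 CPM in IUGR-HFhf livers, against 21.7, 25.1 and 25.3 CPM in CON livers (log2 fold change 4.53, SE 1.001, adjusted p = 0.00631). IUGR-HFhf replicates 1 and 3 were several times above replicates 2 and 4, and all were above CON. Pnpla3 had 1699, 922, 1255 and 1325 CPM in IUGR-HFhf livers, against 5.20, 40.1 and 87.4 CPM in CON livers (log2 fold change 4.86, SE 1.22, adjusted p = 0.0179), and its relative Pnpla5 had 259, 151, 125 and 207 CPM in IUGR-HFhf livers, against 0, 3.68 and 16.96 CPM in CON livers. None of the 3 passed without CON replicate 1, with log2 fold changes of 4.46, 4.35 and 4.13 and adjusted p of 0.0613, 0.12 and 0.0684. Scd1, the liver's main stearoyl-CoA desaturase, had 15909, 15669, 15883 and 16161 CPM in IUGR-HFhf livers, against 2857, 8752 and 8144 CPM in CON livers and missed the threshold (log2 fold change 1.27, adjusted p = 0.136). Scd1 and Scd2 are alike in sequence, and how reads shared between such genes were counted is not given in the sources used here.

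The 250 bases upstream of Scd2 and Pnpla3 are shown because these genes changed most within the fatty acid synthesis list and both hold CCAAT boxes, the site of the general factor NF-Y. The sequences are RefSeq's, build GRCr8, and capitals mark CCAAT or its reverse complement ATTGG.
Scd2, chr1:253118127-253118376, plus strand: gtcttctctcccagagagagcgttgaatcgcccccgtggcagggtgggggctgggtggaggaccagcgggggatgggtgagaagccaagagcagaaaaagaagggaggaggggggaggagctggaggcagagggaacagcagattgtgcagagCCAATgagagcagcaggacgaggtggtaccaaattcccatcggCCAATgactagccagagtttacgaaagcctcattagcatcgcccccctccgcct
Pnpla3, chr7:117173278-117173527, plus strand: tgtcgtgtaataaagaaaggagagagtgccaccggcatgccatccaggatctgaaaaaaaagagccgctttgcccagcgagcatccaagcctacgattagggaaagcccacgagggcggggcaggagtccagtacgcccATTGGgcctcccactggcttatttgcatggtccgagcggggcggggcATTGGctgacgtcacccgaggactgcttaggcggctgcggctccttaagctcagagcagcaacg
Among the 15 genes called in the lists of fatty acid synthesis and of triglycerides, 12 were in RefSeq's table, with 15 starts. CCAAT, on either strand, was in 6 of the 15 starts (40%), against 34% of all 33469 promoters of that length. The sterol regulatory element TCACNCCAC was in 0 of the 15, against 0.974% of all promoters. The E-box CACGTG was in 1 (6.67%), a start of Plin2, against 5.59%, and the D-box TTANNTAA in 1, the other start of Plin2, against 5.32%. The motifs were searched on both strands, and a match describes the letters and no more.

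**Figure D1:**
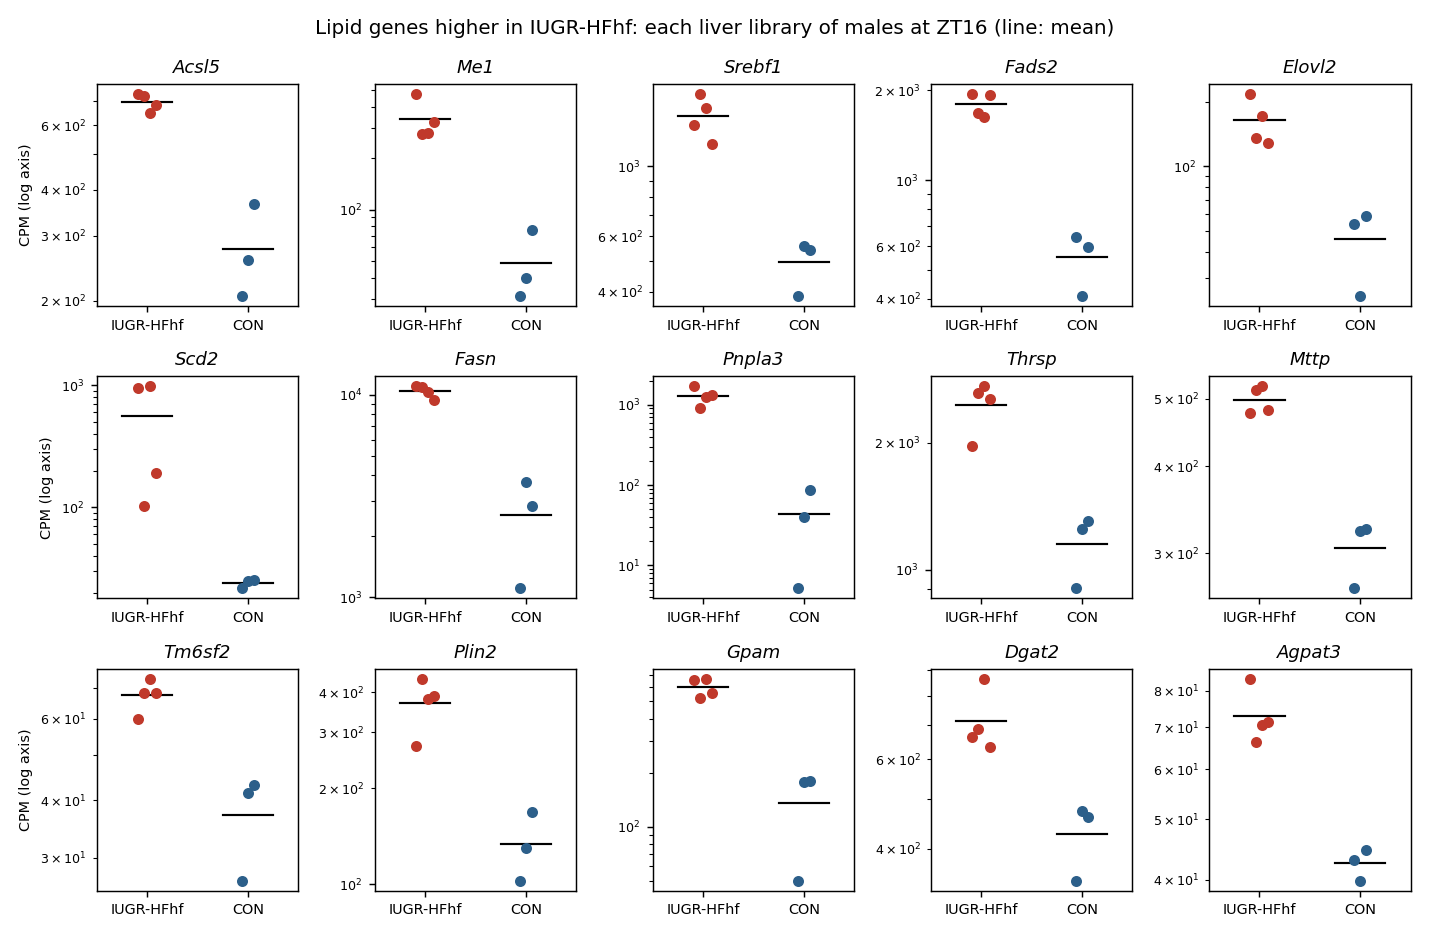
CPM on log axes of the 15 called genes of fatty acid synthesis and of triglyceride assembly, 1 point per liver library of males at ZT16, IUGR-HFhf left of CON, with a line at each mean. In each gene the 4 IUGR-HFhf points lie above the 3 CON points, and Scd2 spreads from 102 to 980 CPM within IUGR-HFhf.

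Triglyceride assembly and lipid droplet genes were higher too, with 6 of 25 risen and 0 fallen (24% called, against 3.31% of all genes tested). Their median log2 fold change was 0.45. Gpam, which adds the first fatty acid to glycerol phosphate, had 657, 519, 668 and 559 CPM in IUGR-HFhf livers, against 49.9, 178 and 180.4 CPM in CON livers (log2 fold change 2.14, SE 0.458, adjusted p = 0.00512). Dgat2, which adds the last, had 662, 689.8, 865 and 635 CPM in IUGR-HFhf livers, against 346, 475 and 462 CPM in CON livers. Plin2, which coats lipid droplets, had 272, 442, 382 and 391 CPM in IUGR-HFhf livers, against 102, 129.9 and 168 CPM in CON livers. These genes were higher in every IUGR-HFhf liver than in any CON liver. Mttp, the lipid loader of apolipoprotein B, had 477 to 521 CPM in IUGR-HFhf livers, against 267 to 325 CPM in CON livers, and the smallest adjusted p of the list (log2 fold change 0.71, SE 0.116, adjusted p = 0.000381). Tm6sf2, which also acts in lipoprotein secretion, rose by 0.86 and Agpat3, an acyltransferase, by 0.78 on the log2 scale. Of the 6, 2 passed without CON replicate 1, Mttp and Plin2. Apoa1 had 3187, 2831, 3240.3 and 2148 CPM in IUGR-HFhf livers, against 743, 507 and 782 CPM in CON livers (log2 fold change 2.07, SE 0.402, adjusted p = 0.00185), and passed in each of 14 alternative settings.

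In the list of fatty acid oxidation, ketone bodies and PPAR alpha targets 7 of 42 rose and 1 fell. That is 19% called, against 3.31% of all genes tested, and the median log2 fold change was 0.34. Most of the genes that rose act in the uptake, binding, transport or activation of fatty acids, and Acadl and Acaa1b encode enzymes of oxidation itself. Cd36, a fatty acid uptake receptor, had 36.5, 28.9, 39.97 and 58.7 CPM in IUGR-HFhf livers, against 5.67, 4.60 and 7.72 CPM in CON livers (log2 fold change 2.75, SE 0.547, adjusted p = 0.00264). Acadl, a long-chain acyl-CoA dehydrogenase, had 524, 608, 503 and 591 CPM in IUGR-HFhf livers, against 338, 314 and 357 CPM in CON livers. Neither gene overlapped between the groups. Fabp1, the liver fatty acid binding protein, rose by 1.14, Acot2, a mitochondrial thioesterase, by 1.13, Abcd3, a peroxisomal transporter, by 0.60 and Acsl1, an acyl-CoA synthetase, by 0.44 on the log2 scale. Acaa1b, a peroxisomal thiolase, rose by 1.05 with an overlap, having 49.5 to 137 CPM in IUGR-HFhf livers, against 37 to 51.3 CPM in CON livers. Cyp4a8, a fatty acid hydroxylase, fell, with 3.29 to 11.997 CPM in IUGR-HFhf livers, against 24.9 to 29.04 CPM in CON livers. Cpt1a, which admits fatty acids into mitochondria, overlapped between the groups (log2 fold change 0.24, adjusted p = 0.78). Without CON replicate 1, 3 of the 7 rises passed, and without CON replicate 2 it was 2, Cd36 and Acadl among them in both cases.

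Subunits of the respiratory chain shifted by small amounts in a common direction. Of 36 oxidative phosphorylation genes 5 rose and 0 fell (13.9% called, against 3.31% of all genes tested), and the median was 0.30. A log2 fold change above 0 was found for 36 of 36, and for 5521 of all 11047 genes tested. In IUGR-HFhf 25 lay wholly higher, where 10.1% of all genes tested did. Cox8a, a subunit of cytochrome oxidase, had 78.2, 94.9, 84.4 and 81.96 CPM in IUGR-HFhf livers, against 50.1, 50.9 and 57.6 CPM in CON livers (log2 fold change 0.68, SE 0.144, adjusted p = 0.00413). Sdha and Sdhd, of succinate dehydrogenase, rose by 0.36 and 0.50, Atp5o, of ATP synthase, by 0.49 and Ndufb5, of complex I, by 0.48 on the log2 scale. Of the 5, 1 passed without CON replicate 1, Cox8a.

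Among 27 genes that take up and use fructose or glucose, 3 rose and 0 fell (11.1% called, against 3.31% of all genes tested), with a median of 0.32. Pgd, a dehydrogenase of the pentose phosphate pathway, had 269.8, 263, 268 and 274 CPM in IUGR-HFhf livers, against 63.3, 97.2 and 103 CPM in CON livers (log2 fold change 1.61, SE 0.348, adjusted p = 0.00526). Gckr, the regulator of glucokinase, rose by 0.99 on the log2 scale. Khk, the ketohexokinase that starts fructose breakdown, did not pass (log2 fold change 0.15, adjusted p = 0.759). Pgd and Gckr did not pass without CON replicate 1, with log2 fold changes of 1.42 and 0.75. Among 13 glycogen genes 1 fell (7.69% called) and 0 rose. It was Ugp2, which makes UDP-glucose, with 297, 320.4, 253 and 249 CPM in IUGR-HFhf livers, against 859, 668 and 603 CPM in CON livers (log2 fold change -1.34, SE 0.313, adjusted p = 0.00932). Without CON replicate 1 its log2 fold change was -1.18 (adjusted p = 0.0812). In gluconeogenesis and amino acid breakdown 1 of 29 passed, 3.45%, near the 3.31% of all genes tested. It was Prodh2, hydroxyproline dehydrogenase, which rose by 0.50 on the log2 scale. Without CON replicate 1 its rise was 0.36 and did not pass. Pck1, the phosphoenolpyruvate carboxykinase, had 579 to 763 CPM in IUGR-HFhf livers, against 1584 to 2809 CPM in CON livers, without overlap, and missed the threshold (log2 fold change -1.61, adjusted p = 0.0627). None of the 8 urea cycle and glutamine genes passed.

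No gene of cholesterol synthesis and uptake passed among 28, whose median log2 fold change was 0.07. Sqle, squalene epoxidase, had 11.8 to 18.3 CPM in IUGR-HFhf livers, against 28.2 to 52.3 CPM in CON livers (log2 fold change -1.35, adjusted p = 0.0719). Log2 fold changes of -0.94 and -1.09 were found for Hmgcs1, which makes HMG-CoA, and Msmo1, a methylsterol oxidase. The median of that list was -0.57 for IUGR-HFhf against CON in males at ZT4 and -0.42 in females at ZT16. In bile acid and sterol transport 0 of 28 rose and 2 fell (7.14% called, against 3.31% of all genes tested). Cyp8b1, the sterol 12-hydroxylase, had 49.7, 121, 85.8 and 58.7 CPM in IUGR-HFhf livers, against 189, 158 and 261 CPM in CON livers (log2 fold change -1.36, SE 0.350, adjusted p = 0.0204). Cyp7b1, the oxysterol 7-hydroxylase, had 8.17, 8.78, 10.1 and 10.1 CPM in IUGR-HFhf livers, against 40.3, 11.4 and 12.7 CPM in CON livers, and its log2 fold change of -1.19 was -0.38 without CON replicate 1. Neither passed without that library (adjusted p = 0.0664 for Cyp8b1). Cyp7a1, the rate-limiting enzyme of bile acid synthesis, overlapped between the groups (log2 fold change -0.62, adjusted p = 0.667).

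**Figure D2:**
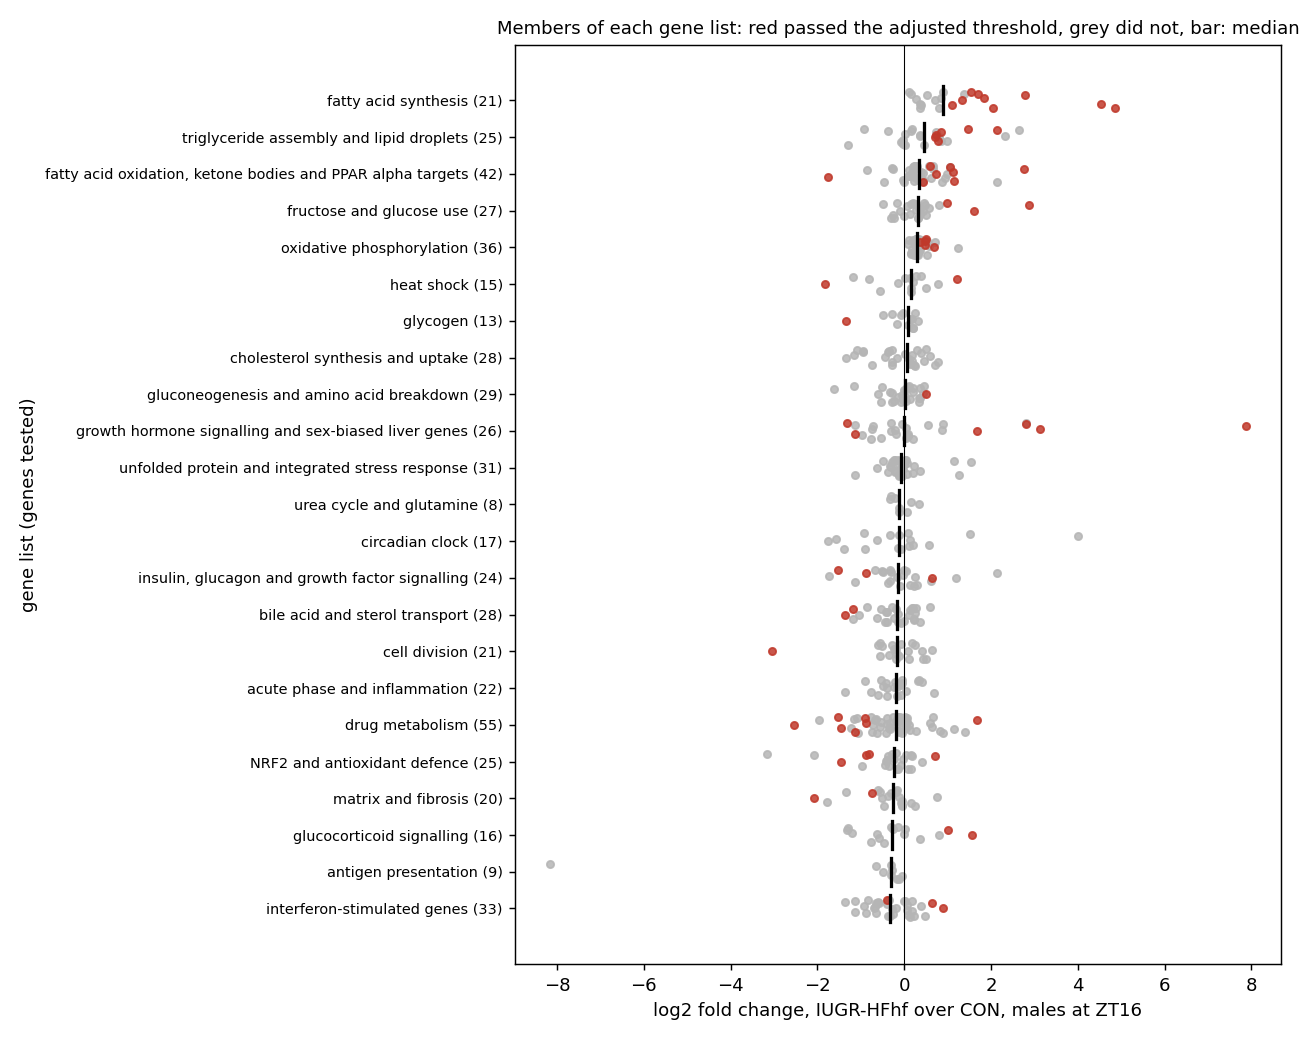
Log2 fold change of IUGR-HFhf over CON in males at ZT16 for each tested member of 23 gene lists, 1 point per gene, red where the adjusted threshold was passed, with a bar at the list's median. Fatty acid synthesis has the highest median, 0.90, and the 36 oxidative phosphorylation genes all lie above 0.

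Drug-metabolising enzymes were lower more often than higher: 1 of 55 rose and 6 fell (12.7% called, against 3.31% of all genes tested), with a median log2 fold change of -0.20. Cyp3a18, a male-biased cytochrome P450, had 77.1, 157, 30.6 and 246 CPM in IUGR-HFhf livers, against 779, 818 and 623 CPM in CON livers (log2 fold change -2.54, SE 0.542, adjusted p = 0.00512). Ephx1, the microsomal epoxide hydrolase, had 488 to 542 CPM in IUGR-HFhf livers, against 718 to 1206 CPM in CON livers. Gsta2, a glutathione transferase, and Ces1d, a carboxylesterase, fell by 1.52 and 1.46 on the log2 scale. Cyp3a2, another male-biased P450, fell by 1.14 with an overlap between the groups. The gene that rose was Cyp2c7, a retinoid-metabolising P450. Of the 6 falls 1 passed without CON replicate 1, that of Cyp3a18. Many of these enzymes belong to families of near-identical genes, so their values are uncertain where reads are shared. In the list of NRF2 and antioxidant defence 1 of 25 rose and 3 fell (16% called). The rise was that of Gpx1, glutathione peroxidase, with 1008 to 1127 CPM in IUGR-HFhf livers, against 585 to 680.0 CPM in CON livers. Akr7a3, an aldehyde reductase, Gclm, a subunit of the enzyme of glutathione synthesis, and Ephx1 fell, with log2 fold changes of -1.46, -0.81 and -0.89, and 1 of these, Akr7a3, passed without CON replicate 1.

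A large share of the genes that changed differ between the sexes. Sex bias was taken from CON females against CON males at ZT4, 3 libraries each, none of which is among the 7; this comparison was added after the data were seen. There 489 genes were higher in females and 438 higher in males, 4.43% and 3.96% of the genes tested. Of the 203 genes higher in IUGR-HFhf males 50 were female-biased (24.6%) and 1 was male-biased, Ldha, lactate dehydrogenase A. Of the 163 genes lower in IUGR-HFhf males 55 were male-biased (33.7%) and 8 were female-biased (4.91%). Seen from the sex-biased genes, 10.2% of the female-biased rose and 1.64% fell, while 0.228% of the male-biased rose and 12.6% fell. The median log2 fold change in males at ZT16 was 0.17 over the 489 female-biased genes and -0.24 over the 438 male-biased genes, against 0 over all genes. In IUGR-HFhf females against CON females at ZT16 these medians were -0.0039 and -0.0088. Without CON replicate 1 the 50 and 55 were 16 and 18, beside 0 and 2 in the opposite directions, and without CON replicate 2 they were 24 and 28, beside 0 and 3. They were 35 and 25 without IUGR-HFhf replicate 3 and 38 and 29 without IUGR-HFhf replicate 1. With any 1 of the 6 CON libraries of ZT4 left out, 38 to 47 of the genes that rose were female-biased and 43 to 53 of those that fell were male-biased. The CON females at ZT4 were sequenced more deeply than the CON males.

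**Figure D3:**
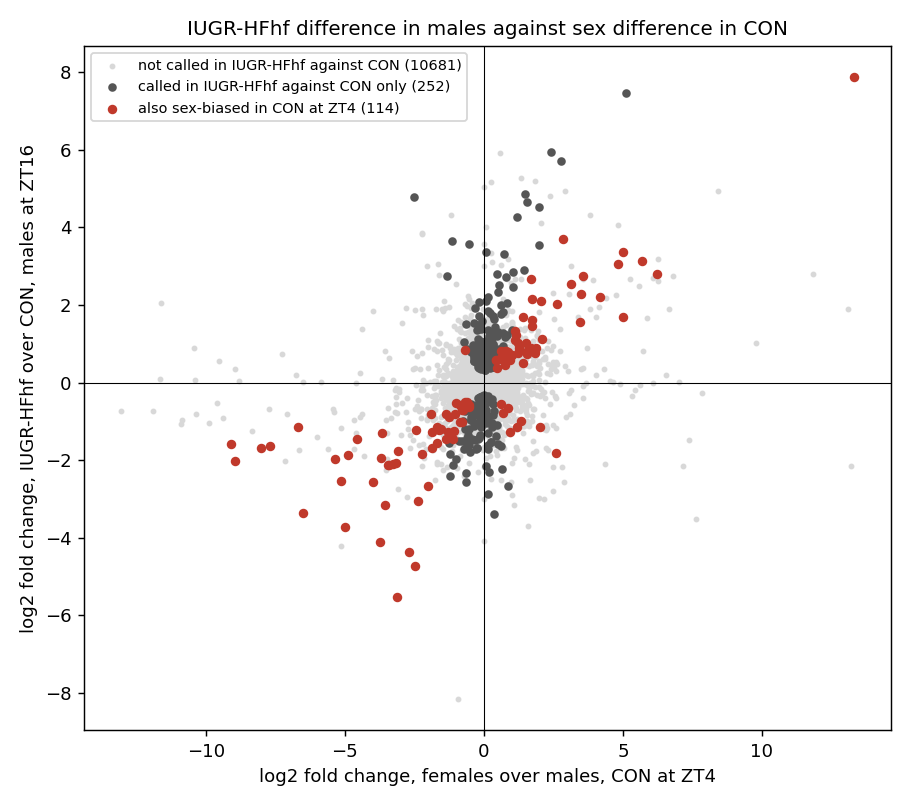
Each point is 1 of 11047 genes, with the log2 fold change of females over males in CON at ZT4 on the horizontal axis and that of IUGR-HFhf over CON in males at ZT16 on the vertical axis; red points were called in both. Of the 114 red points 50 lie in the upper right and 55 in the lower left.

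Single libraries differed in how far they stood from CON. The median difference from the CON mean over the 489 female-biased genes was 0.21, 0.17, 0.22 and 0.12 in IUGR-HFhf replicates 1 to 4, against -0.09, 0 and 0.07 in CON replicates 1 to 3, on the log2(CPM + 0.5) scale. Over the 438 male-biased genes it was -0.28, -0.18, -0.35 and -0.15 in IUGR-HFhf, against 0.06, -0.0013 and -0.04 in CON. The 4 IUGR-HFhf livers were thus beyond the 3 CON livers in the female direction, replicate 3 the furthest and replicate 4 the least.

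Among the female-biased genes that rose, Prlr, the prolactin receptor, had 103, 78.4, 131 and 56.1 CPM in IUGR-HFhf males, against 6.77, 1.84 and 22.1 CPM in CON males (log2 fold change 3.12, SE 0.861, adjusted p = 0.0325). Cux2, a repressor of male-biased genes in mouse liver, had 25.8, 18.3, 30.8 and 2.89 CPM in IUGR-HFhf males, against 1.89, 3.68 and 2.74 CPM in CON males (log2 fold change 2.80, SE 0.731, adjusted p = 0.0228). IUGR-HFhf replicate 4 lay within the CON range of Cux2 and the other three far above it. Cyp2c7 had 5328, 4522, 6040.3 and 5249 CPM in IUGR-HFhf males, against 1159, 778 and 3023 CPM in CON males, and Srd5a1, the steroid 5-alpha-reductase, had 406, 267, 721 and 377 CPM in IUGR-HFhf males, against 159, 132 and 162 CPM in CON males. IUGR-HFhf replicate 3 was the highest library for Prlr, Cux2, Cyp2c7, Srd5a1 and Akr1b7 alike. Aldh1b1, a mitochondrial aldehyde dehydrogenase, Trim24, a transcriptional coregulator, and Ddhd1, a phospholipase, rose by 2.21, 1.68 and 2.66 on the log2 scale. Some lipid genes named above were female-biased, Cd36, Acsl5, Gpam, Dgat2, Mttp, Pgd and Thrsp among them, whereas Fasn, Srebf1, Me1, Scd2 and Pnpla3 were not called between the sexes. Prlr, Cux2, Cyp2c7, Trim24 and Ddhd1 did not pass without CON replicate 1, with log2 fold changes of 2.91, 2.62, 1.48, 1.45 and 2.37.

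Among the male-biased genes that fell, Hao2, a peroxisomal hydroxyacid oxidase, had 108, 144, 83.04 and 185 CPM in IUGR-HFhf males, against 398, 294 and 278 CPM in CON males (log2 fold change -1.31, SE 0.297, adjusted p = 0.00682). Acnat2, an acyl-CoA amino acid transferase, had 38.9, 73.1, 34.2 and 57.5 CPM in IUGR-HFhf males, against 270.0, 188 and 164 CPM in CON males, and Csad, which acts in taurine synthesis, had 84.4, 143, 40.8 and 53.6 CPM in IUGR-HFhf males, against 389.5, 399 and 260.2 CPM in CON males. None of these 3 genes overlapped between the groups, and Hao2 did not pass without CON replicate 1 (log2 fold change -1.14). Abcb1b, Cdkn1a, Cyp3a18, Ephx1, Gclm and Mdm2, a regulator of p53, were male-biased too.

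Cyp2c11, Cyp2c13 and Cyp2c12, textbook sex markers of rat liver, did not pass. The male-biased Cyp3a2 did, with 140 to 399 CPM in IUGR-HFhf males, against 333 to 900 CPM in CON males (log2 fold change -1.14, adjusted p = 0.0478). Without CON replicate 1 Cyp3a2 did not pass (log2 fold change -0.85, adjusted p = 0.287). Cyp2c11, the main male P450, had 1608, 1955, 807 and 3342 CPM in IUGR-HFhf males, against 3082, 3223 and 3305 CPM in CON males (log2 fold change -0.73, adjusted p = 0.421). IUGR-HFhf replicates 1 to 3 were below the CON range and replicate 4 was above it, while IUGR-HFhf and CON females at ZT16 had at most 2.23 CPM. Cyp2c13, another male P450, had 1089 to 2173 CPM in IUGR-HFhf males, against 2042 to 2643 CPM in CON males. Cyp2c12, the main female P450, had 35.6 to 61.1 CPM in IUGR-HFhf males, against 33.2 to 61.9 CPM in CON males (log2 fold change -0.04, adjusted p = 0.98). Igf1, the growth factor that liver makes under growth hormone, the receptor gene Ghr and Stat5b, which carries the hormone's signal, had log2 fold changes of -0.32 (adjusted p = 0.17), -0.21 (adjusted p = 0.531) and 0.05 (adjusted p = 0.929). Bcl6, a repressor of female-biased genes in mouse liver, had 65.3, 9.77, 56.1 and 60.998 CPM in IUGR-HFhf males, against 11.3, 60.7 and 61.3 CPM in CON males, with 1 low library in each group. Of 26 genes listed as growth hormone signalling and sex-biased genes 4 rose and 2 fell, 23.1%, against 3.31% of all genes tested. Their median log2 fold change was 0.0021, but the list mixes female-biased and male-biased genes, so opposite shifts can cancel in that median. Of the 26, 0 passed in either direction without CON replicate 1.

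**Figure D4:**
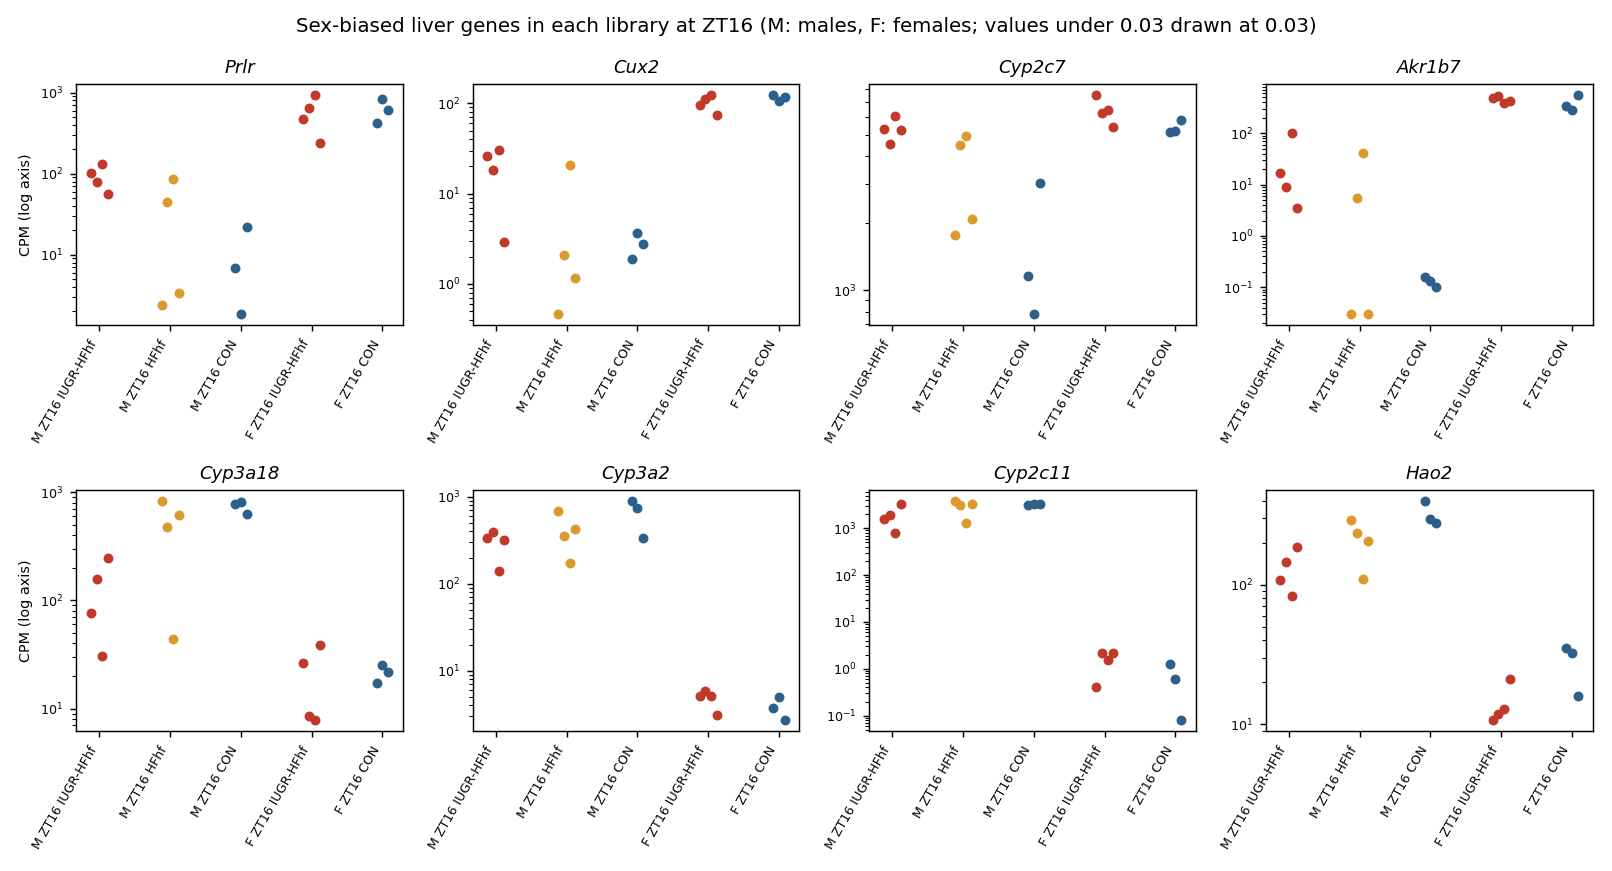
CPM on log axes of 8 sex-biased genes, 1 point per library, in IUGR-HFhf, HFhf and CON males and in IUGR-HFhf and CON females at ZT16, with values under 0.03 drawn at 0.03. The upper 4 genes are female-biased and the lower 4 male-biased; IUGR-HFhf males lie between CON males and both groups of females for Prlr and Hao2, and the lowest male value of Cyp2c11 is 807 CPM.

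Of 24 genes of insulin, glucagon and growth factor signalling 1 rose and 2 fell, 12.5%, against 3.31% of all genes tested. Adipor2, an adiponectin receptor, had 136 to 157 CPM in IUGR-HFhf livers, against 86.1 to 104 CPM in CON livers (log2 fold change 0.63, SE 0.121, adjusted p = 0.00157). Irs2, an insulin receptor substrate, had 9.22, 9.65, 8.79 and 6.07 CPM in IUGR-HFhf livers, against 14.8, 21.8 and 35.7 CPM in CON livers, and Igfbp3, the carrier of insulin-like growth factors, 45.8 to 69.1 CPM in IUGR-HFhf livers, against 89.5 to 112 CPM in CON livers. Neither of these falls passed without CON replicate 1 (log2 fold changes -1.77 and -0.86). Of 16 glucocorticoid genes 2 rose (12.5%), Srd5a1 and Serpina6, the corticosteroid carrier of plasma, which had 746 to 963 CPM in IUGR-HFhf livers, against 307 to 509 CPM in CON livers. Serpina6 did not pass without CON replicate 1 (log2 fold change 1.10). Hsd11b1, which regenerates corticosterone, had a log2 fold change of -1.31 (adjusted p = 0.181). No gene of the circadian clock passed among 17. Of these, 7 lay wholly lower and 2 wholly higher in IUGR-HFhf, where 9.32% and 10.1% of all genes tested did. Nr1d1, the repressor REV-ERB alpha, had 6.32, 3.46, 14.1 and 8.67 CPM in IUGR-HFhf livers, against 40.8, 18.8 and 23.1 CPM in CON livers (log2 fold change -1.75, adjusted p = 0.0668). Npas2, a partner of BMAL1, had 0.659, 9.52, 0.866 and 3.04 CPM in IUGR-HFhf livers, against 0.315, 0.132 and 0.203 CPM in CON livers, replicate 2 of IUGR-HFhf being the highest (adjusted p = 0.0902).

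Heat shock, interferon and matrix genes were called in 13.3%, 9.09% and 10% of their lists, against 3.31% of all genes tested. Among 15 heat shock genes Hspb1, a small chaperone, fell and Hspa4l, of the HSP110 family, rose, with log2 fold changes of -1.83 and 1.22, which were -1.37 and 1.16 without CON replicate 1, where neither passed. Of 31 genes of the unfolded protein and integrated stress response, 22 of the acute phase and inflammation and 9 of antigen presentation none passed. Of 33 interferon-stimulated genes Bst2, which tethers viruses to the cell, and Ifit2 rose and Stat2, a transducer of interferon signals, fell, with log2 fold changes of 0.89, 0.63 and -0.39. Stat2 did not pass without CON replicate 1 (log2 fold change -0.30), while Bst2 passed with each of the 7 libraries left out. Summed markers of T and NK cells reached 4.58 to 7.52 CPM in IUGR-HFhf livers, against 7.56 to 9.44 CPM in CON livers. In the matrix list 0 of 20 rose and 2 fell, Lox, the collagen cross-linking oxidase, and the collagen gene Col5a2, with log2 fold changes of -2.08 and -0.73; neither passed without CON replicate 1 (log2 fold changes -2.06 and -0.73). The stellate cell marker sums given above were also lower in IUGR-HFhf livers, and their part in this was not tested. Lrat and Reln made up most of those sums, and no stellate cell marker was called. Rgs5, a marker of that list, went the other way, with 3.96 to 6.72 CPM in IUGR-HFhf livers, against 1.73 to 2.76 CPM in CON livers. Of 21 cell division genes 1 passed, Cdkn1a, 4.76%, against 3.31% of all genes tested.

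IUGR-HFhf was next set against HFhf males at ZT16, whose dams had no calorie restriction and were on the Western diet already in gestation. The groups thus differ in prenatal diet as well as in restriction, and the effects of these cannot be told apart. Of 11047 genes 2 differed, 0.0181%, and 764 had an unadjusted p under 0.05. Jdp2, a partner of AP-1 factors, had 0.395, 0.619, 0.495 and 0.867 CPM in IUGR-HFhf livers, against 1.62, 2.10, 2.27 and 1.90 CPM in HFhf livers (log2 difference -1.72, SE 0.336, adjusted p = 0.0301), and passed in 5 of 15 alternative settings. The other gene, listed as RGD1305807 and named after its values were seen, was higher by 0.72 on the log2 scale (adjusted p = 0.0238). HFhf replicate 3 held 1044 reads of the muscle actin gene Acta1, of which the 7 libraries had at most 1 each. Sex-biased genes varied within HFhf: in replicates 1 to 4 Cux2 had 0.462, 2.10, 20.5 and 1.17 CPM and Cyp2c11 3846, 3086, 1284 and 3377 CPM, with replicate 3 apart from the rest. Prlr had 2.42, 44.6, 85.4 and 3.36 CPM, Cyp2c7 1767, 4497, 4940.0 and 2092 CPM and Srd5a1 116, 379.8, 551 and 200.5 CPM, with replicates 2 and 3 both above the other HFhf livers. Without replicate 3, 24 genes passed, 14 higher and 10 lower in IUGR-HFhf. That library is extreme in some of these genes, so leaving it out moves them by construction: the log2 difference of Cux2 was 4.03 without it and 1.64 with all libraries, and that of Cd36 2.13 and 0.99. For Sult2a6 it was 2.41 and 1.86, for Acnat2 -1.65 and -1.35 and for Mst1r -3.16 and -2.87. These genes were named after their values were seen. The count was 0 to 3 with any other of the 8 libraries left out, and 0 without HFhf replicate 1 or 2 or IUGR-HFhf replicate 1 or 2.

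HFhf against CON, which shares the 3 CON libraries, called 103 of 11047 genes, 65 higher and 38 lower. IUGR-HFhf against CON called 366 of the same genes. A difference between these counts is not a test, and the direct test above called 2 genes. Its median log2 fold change over the fatty acid synthesis list was 0.72, where that of IUGR-HFhf was 0.90, over oxidative phosphorylation 0.25, where that of IUGR-HFhf was 0.30, and over the 489 female-biased and 438 male-biased genes 0.10 and -0.12, where those of IUGR-HFhf were 0.17 and -0.24. Fasn averaged 8989 CPM, Pnpla3 1043 CPM, Scd2 90.03 CPM and Cyp3a18 493 CPM in HFhf livers. These means hide a wide spread: in HFhf replicates 1 to 4 Pnpla3 had 77.9, 1466, 2227 and 401 CPM and Cyp3a18 830, 479, 44.1 and 617 CPM. The differences of IUGR-HFhf from HFhf in these 4 genes did not pass, with adjusted p of 0.951, 0.963, 0.53 and 0.308. Without HFhf replicate 3 that of Cyp3a18 passed, with a log2 difference of -2.33 (adjusted p = 0.00601), where it was -1.95 with all libraries. That library is the lowest HFhf liver for Cyp3a18, so leaving it out moves the difference by construction.

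Whether the effect of IUGR-HFhf in males differed between ZT16 and ZT4 was tested as the difference of the log2 fold changes. It did for 2 genes, 0.0181%, and 1286 had an unadjusted p under 0.05. Sdr42e1, of the short-chain dehydrogenase family, had 49.5, 43.9, 50.2 and 37.4 CPM in IUGR-HFhf livers, against 62.7, 54.996 and 40.4 CPM in CON livers at ZT16. At ZT4 it had 68.5, 119 and 126 CPM in IUGR-HFhf livers, against 40.7, 44.9 and 46.9 CPM in CON livers. The groups overlapped at ZT16 and were apart at ZT4, where IUGR-HFhf was higher (difference -1.46, SE 0.251, adjusted p = 0.0058). Irx1, a homeobox gene, had 11.7, 11.5, 7.43 and 8.38 CPM in IUGR-HFhf livers, against 29.3, 20.5 and 15.3 CPM in CON livers at ZT16. At ZT4 it had 9.56, 15.4 and 11.02 CPM in IUGR-HFhf livers, against 7.11, 7.92 and 9.05 CPM in CON livers. It was lower in IUGR-HFhf at ZT16, and at ZT4, where the groups stood the other way round, it was not called (difference -1.71, SE 0.335, adjusted p = 0.0331). The difference passed in 17 of 20 alternative settings for Sdr42e1 and in 12 of 20 for Irx1, and 0 genes passed without CON replicate 1 of ZT16, without CON replicate 1 of ZT4 or without IUGR-HFhf replicate 3 of ZT4.

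Whether the effect at ZT16 differed between males and females was tested in the same way, and 3 genes passed, 0.0272%, with 557 at an unadjusted p under 0.05. Sult2a6, a hydroxysteroid sulfotransferase, had 354, 254, 391 and 89.8 CPM in IUGR-HFhf males, against 15.6, 23.7 and 39.1 CPM in CON males. Females had 1556, 747, 1047 and 949.8 CPM in IUGR-HFhf livers, against 1205, 1024 and 1517 CPM in CON livers. The log2 fold change was 3.37 in males and -0.22 in females (difference 3.59, SE 0.594, adjusted p = 0.00196). Adh6, an alcohol dehydrogenase, had 109, 87.5, 96.4 and 68.5 CPM in IUGR-HFhf males, against 17.6, 22.9 and 26.3 CPM in CON males. Females had 133, 156, 176 and 122 CPM in IUGR-HFhf livers, against 158, 286 and 273 CPM in CON livers (difference 2.72, SE 0.486, adjusted p = 0.00561). Both genes are female-biased in CON, and IUGR-HFhf males stood between CON males and females. Without male CON replicate 1 the male-female difference for Adh6 did not pass (adjusted p = 0.0704). Slc22a8, an organic anion transporter, had 69.9, 113, 52.97 and 169 CPM in IUGR-HFhf males, against 179, 210.4 and 208 CPM in CON males, which was not called (adjusted p = 0.135). In females it had 7.04, 2.23, 1.09 and 8.08 CPM in IUGR-HFhf livers, from 104, 15, 17 and 78 reads, against 0 reads in each of the 3 CON livers. The 4 IUGR-HFhf females thus had reads of a male-biased gene of which CON females at ZT16 had none, and the test of the difference passed (adjusted p = 0.000208). With only the groups of the comparison in the fit, the differences for Sult2a6 and Slc22a8 did not pass (adjusted p = 0.089 and 0.241).

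**Figure D5:**
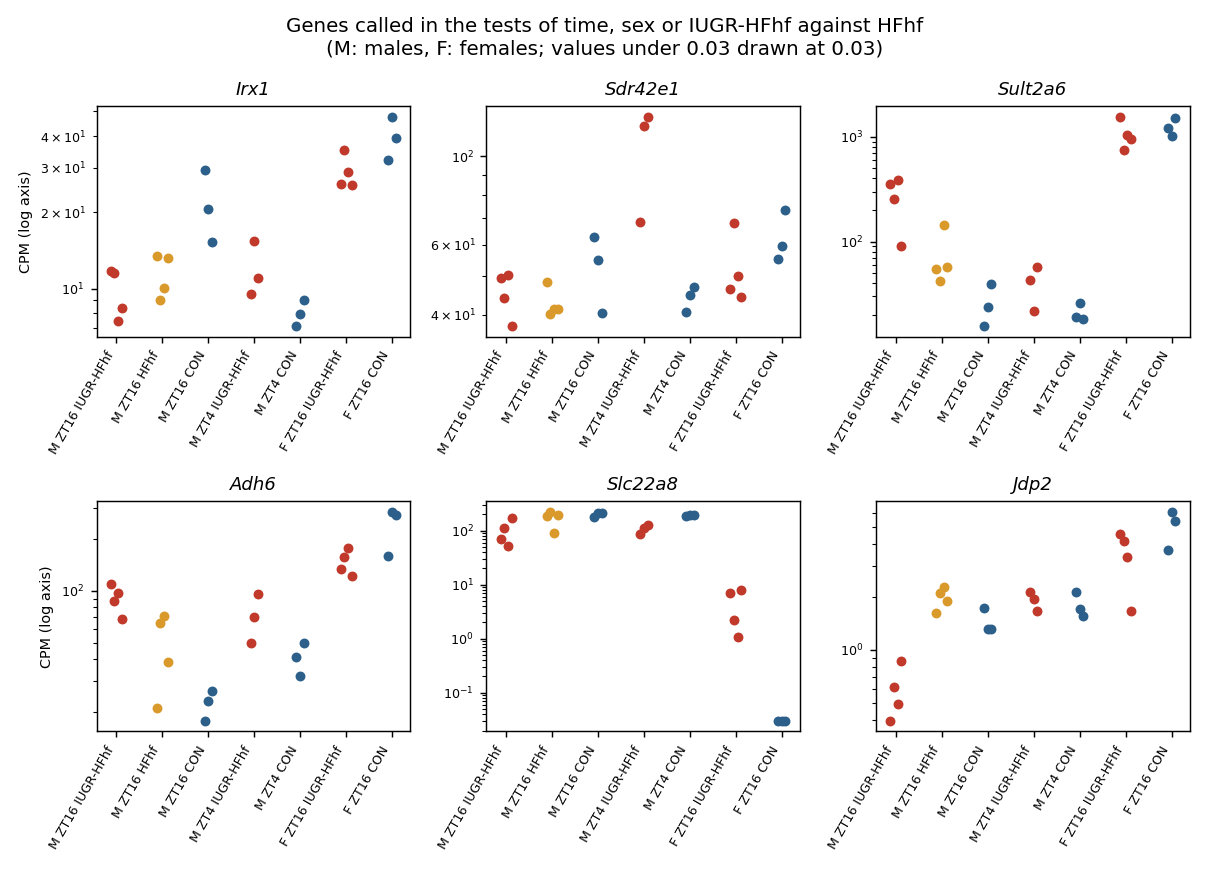
CPM on log axes of the 6 named genes called in the tests of time, sex or IUGR-HFhf against HFhf, 1 point per library in 7 groups of males and females at ZT16 and ZT4, with values under 0.03 drawn at 0.03. Sult2a6 and Adh6 of IUGR-HFhf males lie between CON males and females, and Slc22a8 has 0 reads in the 3 CON females.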

How the data were processed

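Stranded liver RNA libraries were sequenced on a HiSeq 4000, per the labels' protocols, which describe ribosomal RNA removal, while the molecule label reads polyA RNA. Build rn6 and the tools STAR, featureCounts, Subread, FastQC and DESeq2 are listed without versions in the submitters' processing notes; the strand setting of the counting is not given in the sources used here, so a gene and its antisense partner may share reads. The authors deposited raw read counts of 17337 genes by symbol, and a table of log2 fold changes with adjusted p-values (deposited p-values used only to compare calls). Here, counts were filtered (filterByExpr), scaled by TMM and fitted with edgeR 4.0.16 (R 4.3.3, limma 3.58.1) by the quasi-likelihood test over 56 libraries with 1 mean per group. P-values were adjusted by Benjamini-Hochberg over 11047 genes, with a threshold of 0.05. DESeq2 1.42.0 was an alternative, as were RLE scaling, no filter, fewer libraries, a title-number covariate and leaving out each library. Named were the 12 steepest called rises and falls at 1 CPM or more without overlap, 3 genes of smallest p per list, further called list members and up to 3 genes each way in the other tests. Markers were named where counts needed them. Genes outside that rule (Acaca, Acly, Mlxipl, Scd1, Cpt1a, Khk, Cyp2c11, Cyp2c13, Cyp2c12, Ghr, Stat5b, Igf1, Bcl6, Cyp7a1, Aldh1b1, Ddhd1, Acnat2, Csad, Ldha, Mdm2 and Slc22a8 in males, for example) were chosen after their values were seen. The members and lists were chosen with earlier results of these data known. The steps were tested on simulated counts. Some genes that the naming rule selects are not reported here.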

Additional observations from a re-analysis of the deposited data

Results flagged for a closer look

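Among 142 named genes, in the 4 IUGR-HFhf males at ZT16, 3 had 1 library far from the other three by Dixon's test, which chance alone marks in about 1 of 20 groups. Akr1b7 had 99.1 CPM in IUGR-HFhf replicate 3, where the nearest library had 16.99 CPM, a gap of 0.859 of the group's range. Gys2, the liver glycogen synthase, had 134 CPM in IUGR-HFhf replicate 2, with the nearest at 116 CPM and a gap of 0.839. Bcl6 had 9.77 CPM in IUGR-HFhf replicate 2, with the nearest at 56.1 CPM and a gap of 0.833.

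For 5 genes the effect of IUGR-HFhf differed between times or sexes by the test of the difference itself, on the log2 scale. The ZT16 minus ZT4 difference in males was -1.71 for Irx1 and -1.46 for Sdr42e1. The male minus female difference at ZT16 was 3.59 for Sult2a6, 2.72 for Adh6 and -9.56 for Slc22a8, the last a fitted value against CON females with 0 reads and therefore not a measure of size.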

How the results depend on the processing

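No paired analysis was possible because the labels give the groups no shared replicate numbers. No called result changed its direction in any alternative; Bcl6, Cyp2c12 and Stat5b, near 0 and not called, changed sign without CON replicate 1 (log2 fold changes -0.35, 0.17 and -0.09) and in 1 or 2 other leave-outs each. The 203 higher and 163 lower genes were 358 and 315 with only the groups of the comparison in the fit. Of these 673 genes, 296 were among the 366. Sult2a6, Abcb1b, Cyp3a18, Csad and Aldh1b1 did not pass there (adjusted p of 0.052, 0.0684, 0.118, 0.0681 and 0.091). Nor did Akr1b7, Pnpla3, Pnpla5, Scd2, Gpam, Lama5, Cyp2c7, Prlr and Cux2, among others. The 203 and 163 were 49 to 166 and 38 to 106 with 1 library left out. The 2 genes of the time difference were 36 with DESeq2, 90 with only the groups of the comparison, 59 without the IUGR-RC libraries, 23 without 4 libraries doubted in an earlier analysis of these data for muscle transcripts or shifted clock genes (HFhf replicate 3 of males at ZT16, and IUGR-RC replicates 2 and 3 and IUGR-HFhf replicate 2 of females at ZT4), 59 with the title number as a covariate, and 0 to 17 with 1 library left out. The 3 genes of the sex difference were 27, 10, 9, 11 and 7 in the same settings, and 2 to 8 with 1 library left out. The 2 genes between IUGR-HFhf and HFhf were 0 with only the groups of the comparison, 24 without the 4 doubted libraries, of which HFhf replicate 3 is the one in that comparison, and 0 to 24 with 1 library left out. The cause was not tested. Of 94 named genes called, 24 were called in each of 14 settings, and of 48 not called, 23 were called in some setting. With 3 CON libraries of 5.55 to 9.05 M reads, genes under a few CPM rest on few reads.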
